A study of Oryza sativa with 24 samples.

Results

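Fix T4, the fourth seed generation of a gene-edited hybrid rice line, was compared with the unedited hybrid it was made from. The comparison used 2 flag leaf RNA-seq libraries of each, 4 of the 12 RNA libraries of the series, all taken at heading. The hybrid is Chunyou84 (CY84), a cross of the japonica male-sterile line Chunjiang 16 A as mother with C84, a line between indica and japonica. Fix was made in CY84 by edits of PAIR1, REC8 and OSD1, which turn meiosis into a division like mitosis, together with an edit of MTL, so that diploid offspring are clones of the mother. Fix T0 is the founding generation, and Fix T1 to Fix T4 descend from it by selfing, with diploid plants picked by flow cytometry in each round. CY84 carried no edit and, like Fix T0, was carried over by its roots, and the labels name it as the control of Fix T0. Fix T4 was grown from seed, so in this comparison the edits and the way of raising the plants cannot be told apart. Nothing in the labels says that the 2 libraries of a group are separate plants, so all p-values measure the spread between libraries only. Unless a fit of fewer libraries is named, that spread was estimated within all 6 groups of the 12 RNA libraries, not within CY84 and Fix T4 alone.

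Expression is given in FPKM, a unit that divides fragment counts by gene length and library size. Summed FPKM was 691497 and 700192 in CY84 and 716224 and 680768 in Fix T4, and 23695, 23052, 23517 and 23731 of 55801 listed genes had a value above 0. Read totals were not used here. Read from the spacing of low values, with CY84 replicate 1 set to 1, relative depth was 0.707 in CY84 replicate 2 and 0.801 and 0.779 in Fix T4. The 2 CY84 libraries correlated at r = 0.982 and the 2 Fix T4 libraries at r = 0.970 over 18871 genes, while Fix T4 replicate 2 was closest to Fix T1 replicate 2 (r = 0.973).

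The tissue label held in its defining genes. The chlorophyll-binding protein gene CAB1R had 13547 and 13479 FPKM in the CY84 libraries and 10886 and 8546 FPKM in Fix T4. All 5 anther markers with a usable name stayed below 1 FPKM in all 12 libraries, with RTS, C6 and EAT1 listed at 0 in CY84 and Fix T4. Of the root markers, NRT2.1, PHT1-3 and LSI2 were listed at 0 in both groups, and the 4 root markers summed to 0.527 and 0.749 FPKM in the CY84 libraries and 1.32 and 0.454 FPKM in Fix T4. The 4 seed storage markers summed to 6.89 and 6.66 FPKM in the CY84 libraries and 5.75 and 6.90 FPKM in Fix T4, nearly all of it the starch synthase gene WX. PAIR1, a gene of meiotic recombination, stood at 0 in all 4 libraries, so in this leaf it checks neither the edit nor the labels. The other 3 edited genes were not analysed here. Actin ACT1, a common reference gene, had 39.8 and 40.5 FPKM in the CY84 libraries and 49.7 and 51.8 FPKM in Fix T4 (log2 difference 0.33, limma adjusted p = 0.736).

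Fix T4 differed from CY84 mainly by genes that were higher. Of 18871 tested genes, 355 passed at a limma adjusted p under 0.05 (1.88%): 317 rose in Fix T4 (1.68%) and 38 fell (0.201%). The median log2 difference was 2.02 among the genes that rose and -1.55 among those that fell, and 161 genes rose by at least 2 on the log2(FPKM + 1) scale while 5 fell by as much. Over all tested genes the median log2 difference was 0.12, which rescaling of the libraries by median-of-ratios factors brought to -0.0018. Both Fix T4 libraries stood above both CY84 libraries in 35.7% of tested genes and below both in 15% of them. Of the genes that rose, 28 had reached the minimum of 1 FPKM in 2 libraries only with the help of Fix T4. Leaving out CY84 replicate 1 or 2 left 92 or 34 calls, and leaving out Fix T4 replicate 1 or 2 left 100 or 61, while CY84 and Fix T4 fitted alone gave 897.

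Of 163 tested genes in 20 lists of leaf, stress, nutrient and hormone pathways, 19 rose and 1 fell, against 1.68% and 0.201% of all tested genes. A further 8 of the genes named below, CML31, CML15, MPK5, WRKY24, HCT1, CYP71Z7, HSFB1 and HOX24, were added to the lists after their values had been seen, and list counts leave them out. These shares are not read as support, since the lists were drawn up with earlier results of these libraries known. The 19 genes that rose lay in the lists of DREB1 factors, phenylpropanoid enzymes, diterpenoid phytoalexins, defence genes, jasmonate genes and phosphate transport.

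**Figure D1:**
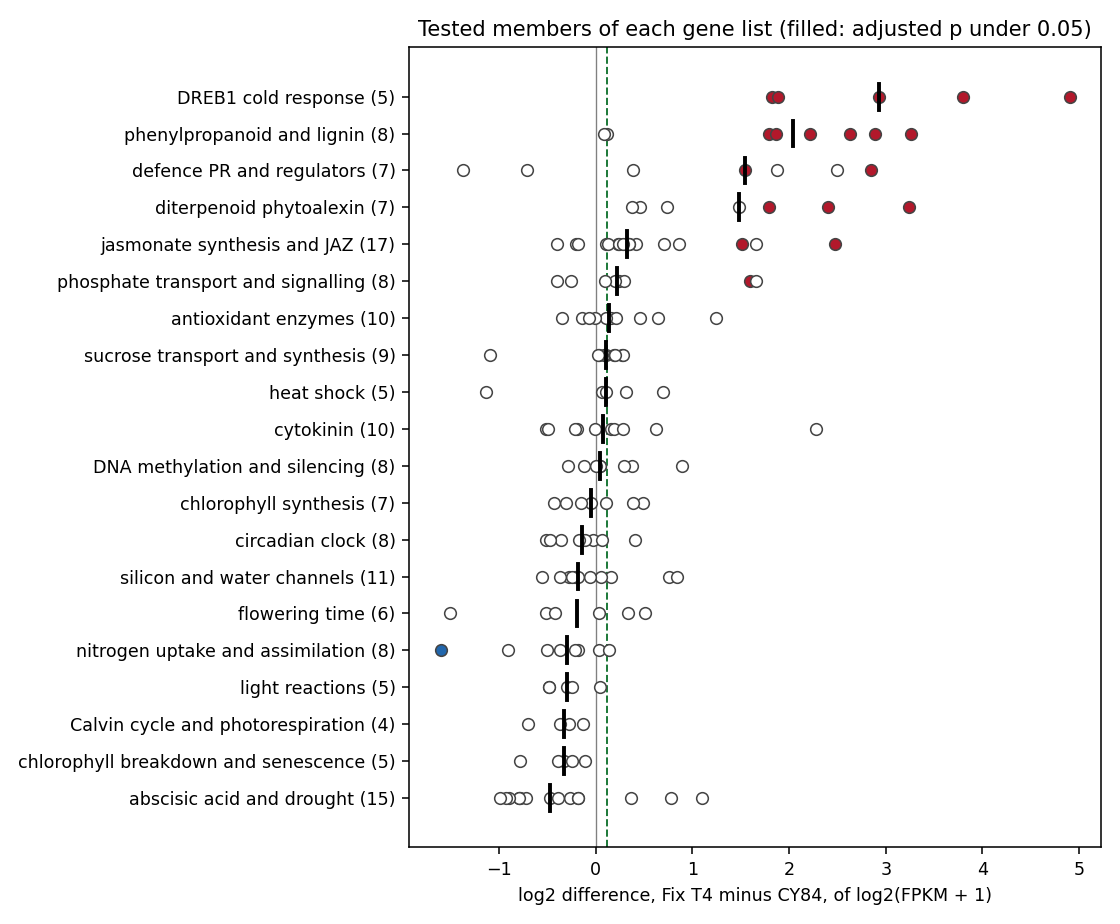
Log2 difference of log2(FPKM + 1), Fix T4 minus CY84, for each tested member (circle) of 20 gene lists, with the number tested in brackets, the list's median as a black bar and the median of all 18871 tested genes (0.12) as a dashed line. Filled circles passed at a limma adjusted p under 0.05. Of all tested genes 1.68% passed with a rise and 0.201% with a fall. All 5 tested DREB1 genes and 6 of 8 phenylpropanoid genes are filled on the right, and NIA1 is filled on the left. DREB1E, DREB1G and DREB1H passed the filter on low values only through Fix T4. The lists were drawn up with earlier results of these libraries known.

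DREB1 genes, also called CBF genes, encode AP2-type transcription factors, several of which are induced by cold in leaves of rice and other plants, and that switch on cold and dehydration tolerance genes. They were near 0 in CY84 and at up to 42.0 FPKM in Fix T4. DREB1A (LOC_Os09g35030) had 0.966 and 0.545 FPKM in the CY84 libraries and 25.0 and 21.5 FPKM in Fix T4. DREB1B (LOC_Os09g35010) had 0.351 and 0.329 FPKM in the CY84 libraries and 42.0 and 36.3 FPKM in Fix T4, the highest level of the family. Neither gene came near these levels in the 8 libraries of Fix T0 to Fix T3, where DREB1A ranged over 0.110 to 2.52 FPKM and DREB1B over 0 to 4.07 FPKM. The log2 difference was 3.79 for DREB1A (SE 0.41, limma adjusted p = 0.000720). For DREB1B it was 4.90 (SE 0.56, limma adjusted p = 0.00137). On the log2(FPKM + 1) scale the change of genes with low values is understated: the mean FPKM of DREB1A was 30.8 times and that of DREB1B 115 times the mean in CY84. Both calls held in each of the 19 alternative fits.

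DREB1H, DREB1G and DREB1E had lower levels and were also highest in Fix T4. DREB1H (LOC_Os09g35020) had 0.123 and 0.173 FPKM in the CY84 libraries and 10.8 and 5.47 FPKM in Fix T4 (log2 difference 2.93, SE 0.37, limma adjusted p = 0.00210). DREB1G (LOC_Os02g45450) had 0.0902 and 0 FPKM in the CY84 libraries and 3.65 and 2.20 FPKM in Fix T4 (log2 difference 1.89, SE 0.26, limma adjusted p = 0.00371). DREB1E (LOC_Os04g48350) was listed at 0 in both CY84 libraries and at 3.63 and 1.73 FPKM in Fix T4 (log2 difference 1.83, SE 0.28, limma adjusted p = 0.00624). For each of the 3, both Fix T4 libraries lay above the other 10 libraries, none of which was above 1.20 FPKM. They passed the filter on low values only through Fix T4, so the count of 5 passing genes among 5 tested ones is no support for the family as a whole. DREB1C did not reach the filter, with 0.156 and 0 FPKM in the CY84 libraries and 1.90 and 0.711 FPKM in Fix T4, and DREB1F was listed at 0 in all 12 libraries. DREB1G lost its call without CY84 replicate 2 (limma adjusted p = 0.0595) and DREB1E without CY84 replicate 1, CY84 replicate 2 or Fix T4 replicate 1 (0.0594, 0.0844 and 0.0562). With a pseudocount of 0.1 the limma adjusted p was 0.0657 for DREB1G and 0.0532 for DREB1E.

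Calcium sensors and MAP kinases relay stress signals inside the cell. Of 13 tested genes of this list, which was added after its values had been seen, 3 rose and 0 fell, with a median log2 difference of 0.65, and on rescaling 1 rose. The 1.68% of all tested genes that rose stand beside this count without being read against it, because the list was picked on these libraries. CML31 (LOC_Os01g72530), a calmodulin-like calcium sensor, had 2.81 and 2.55 FPKM in the CY84 libraries and 58.4 and 69.7 FPKM in Fix T4 (log2 difference 4.14, SE 0.59, limma adjusted p = 0.00449). CML15 (LOC_Os05g31620), another calmodulin-like protein gene, had 3.08 and 4.91 FPKM in the CY84 libraries and 63.6 and 35.4 FPKM in Fix T4 (log2 difference 3.30, SE 0.73, limma adjusted p = 0.0402). MPK5 (LOC_Os03g17700), a mitogen-activated protein kinase, had 7.12 and 4.48 FPKM in the CY84 libraries and 16.2 and 18.4 FPKM in Fix T4 (log2 difference 1.45, SE 0.29, limma adjusted p = 0.0266). In all 3 genes the Fix T4 libraries lay above the other 10, the closest of which were Fix T1 replicate 2 for CML31 (21.2 FPKM) and CML15 (12.1 FPKM) and Fix T3 replicate 1 for MPK5 (11.4 FPKM). The other calmodulin-like genes did not pass. CML16 had 16.2 and 16.0 FPKM in the CY84 libraries and 45.1 and 44.5 FPKM in Fix T4 (limma adjusted p = 0.498), and CML4 had 7.22 and 8.97 FPKM and 14.1 and 21.3 FPKM (limma adjusted p = 0.139). Both had higher values in Fix T4 without overlap, and the libraries of Fix T0 to Fix T3 were spread over 3.24 to 18.8 FPKM in CML16. MPK6 (LOC_Os10g38950), another MAP kinase gene, had 18.4 and 17.5 FPKM in the CY84 libraries and 23.6 and 26.6 FPKM in Fix T4 (limma adjusted p = 0.669). CML31 lost its call without CY84 replicate 2 (limma adjusted p = 0.0623) and without Fix T4 replicate 2 (0.0652), CML15 in 10 of 12 fits that left out 1 library (0.0532 to 0.325) and MPK5 without either library of CY84, Fix T0 or Fix T4 (0.0525 to 0.357). On rescaling the limma adjusted p was 0.0553 for CML15 and 0.0776 for MPK5, and with no filter it was 0.142 and 0.0547; CML15 also missed with a pseudocount of 0.1 (0.138).

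Jasmonate is a wound and defence hormone, and JAZ proteins repress its target genes until the hormone triggers their destruction; JAZ genes are themselves among those targets. Of 17 tested genes of jasmonate synthesis, perception and repression, 2 rose and 0 fell, and the list's median log2 difference was 0.33. On rescaling 1 of the 17 rose. Of all tested genes 1.68% rose and 0.201% fell, but this list too was drawn up with earlier results known. JAZ10 (LOC_Os03g08330) had 1.61 and 1.098 FPKM in the CY84 libraries and 11.1 and 13.0 FPKM in Fix T4. The 2 Fix T4 libraries lay above the other 10, where the highest was Fix T3 replicate 1 at 3.60 FPKM. Its log2 difference was 2.48 (SE 0.42, limma adjusted p = 0.0113). JAZ12 (LOC_Os10g25290) had 0.357 and 0.671 FPKM in the CY84 libraries and 2.39 and 4.49 FPKM in Fix T4, again above the other 10 libraries (log2 difference 1.52, SE 0.33, limma adjusted p = 0.0402). JAZ11 had 0.490 and 0.118 FPKM in the CY84 libraries and 2.76 and 3.39 FPKM in Fix T4 and did not pass (limma adjusted p = 0.0847). AOS2, an allene oxide synthase of jasmonate synthesis, had 3.62 and 2.98 FPKM in the CY84 libraries and 7.68 and 5.96 FPKM in Fix T4 and did not pass either (limma adjusted p = 0.561). JAZ7, the repressor gene with 70.3 and 70.6 FPKM in CY84, had 78.2 and 89.5 FPKM in Fix T4 (log2 difference 0.25, 95% interval -0.35 to 0.84). JAZ10 lost its call without any 1 of the 4 compared libraries (limma adjusted p 0.0622 to 0.142), with a pseudocount of 0.1 (0.0550) and with no filter (0.0528). JAZ12 kept it in 4 of 12 fits without 1 library (0.0286 to 0.375 over the 12) and lost it on rescaling (0.105), with no filter (0.0742) and with a pseudocount of 0.1 (0.285).

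Among defence regulators and pathogenesis-related genes, 2 of 7 tested genes rose and 0 fell, with a median log2 difference of 1.55. On rescaling 1 of the 7 rose. Of all tested genes 1.68% rose and 0.201% fell, but the list was drawn up with earlier results of these libraries known. WRKY71 (LOC_Os02g08440), a transcription factor of defence, had 8.61 and 13.1 FPKM in the CY84 libraries and 29.6 and 36.8 FPKM in Fix T4. The other 8 libraries of the Fix line stayed at 6.24 to 13.9 FPKM, and 7 of them did not exceed the higher CY84 library. Its log2 difference was 1.55 (SE 0.26, limma adjusted p = 0.0108). WRKY24 (LOC_Os01g61080), another WRKY factor gene, had 6.73 and 2.98 FPKM in the CY84 libraries and 21.3 and 40.1 FPKM in Fix T4 (log2 difference 2.45, SE 0.47, limma adjusted p = 0.0196). Its Fix T4 libraries likewise lay above the other 10. WRKY76, a repressor of defence genes in rice, had 18.2 and 15.9 FPKM in the CY84 libraries and 10.2 and 3.35 FPKM in Fix T4, lower without overlap but spread widely within Fix T4 (log2 difference -1.37, limma adjusted p = 0.653). WRKY71 lost its call without any 1 of the 4 compared libraries (limma adjusted p 0.0537 to 0.171). WRKY24 lost it without CY84 replicate 2 (limma adjusted p = 0.261) or either Fix T4 library (0.0515 and 0.249) and with no filter (0.0764).

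**Figure D2:**
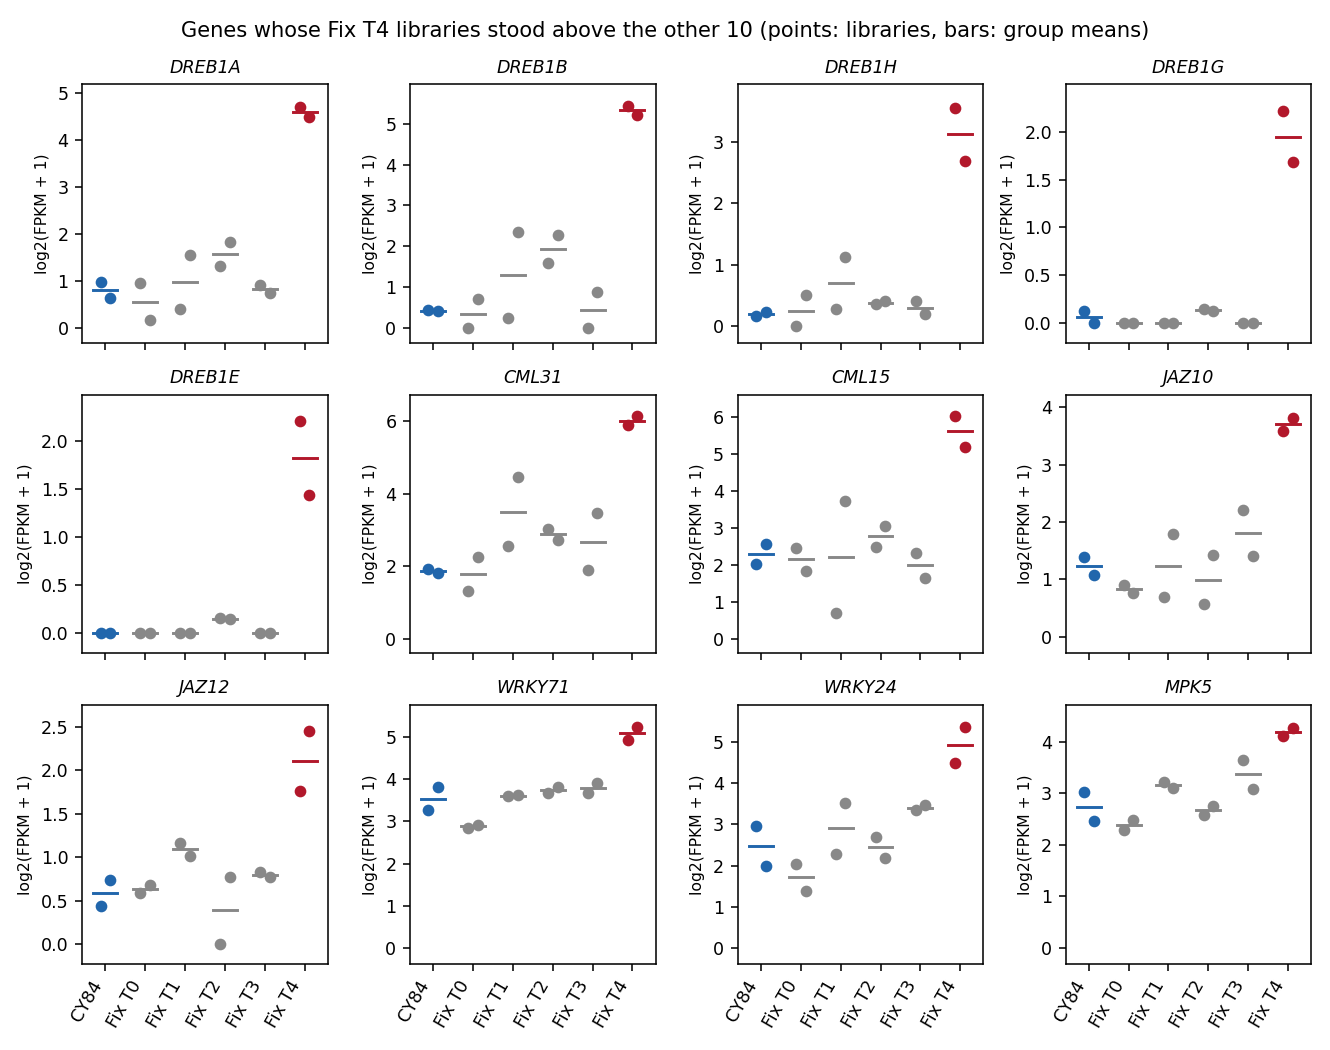
Log2(FPKM + 1) of 12 genes in each of the 12 libraries (points; CY84 blue, Fix T4 red, Fix T0 to T3 grey), with the mean of each group as a bar; each panel has its own axis. The 12 genes were picked because both red points lie above the other 10, so that order is no result of the figure. DREB1E, DREB1G and DREB1H passed the filter on low values only through Fix T4. Outside Fix T4 no DREB1 gene is above 4.07 FPKM.

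PBZ1 (LOC_Os12g36880), a pathogenesis-related gene of family 10 that probenazole induces, showed another order. It had 90.4 and 169 FPKM in the CY84 libraries and 1218 and 659.6 FPKM in Fix T4 (log2 difference 2.85, SE 0.50, limma adjusted p = 0.0120). All 8 libraries of Fix T0 to Fix T3 also lay above both CY84 libraries, at 214 to 1853 FPKM, and 5 of them were at or above the lower Fix T4 library. The chitinase gene CHT8 had 9.98 and 15.3 FPKM in the CY84 libraries and 115 and 47.8 FPKM in Fix T4, with a limma adjusted p of 0.161. CHT1, another chitinase gene, had 2.32 and 4.46 FPKM in the CY84 libraries and 21.9 and 9.65 FPKM in Fix T4, with a limma adjusted p of 0.167. In both genes the Fix T4 values were higher without overlap, and neither passed. NPR1, the central co-activator of salicylate responses, had 8.71 and 8.81 FPKM in the CY84 libraries and 9.39 and 14.7 FPKM in Fix T4 (limma adjusted p = 0.806). PBZ1 lost its call without any 1 of the 4 compared libraries (limma adjusted p 0.0519 to 0.167), with no filter (0.0658) and on rescaling (0.0518).

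The phenylpropanoid pathway turns phenylalanine into lignin and phenolic defence compounds. Of its 8 tested genes 6 rose and 0 fell, beside 1.68% and 0.201% of all tested genes, and the median log2 difference was 2.04. The list was drawn up with earlier results of these libraries known, so this count is not read as support. Phenylalanine ammonia-lyase takes the first step: PAL1 (LOC_Os02g41630) had 63.6 and 42.7 FPKM in the CY84 libraries and 272 and 396 FPKM in Fix T4. PAL4 (LOC_Os02g41680), another gene of this enzyme, had 4.02 and 2.60 FPKM in the CY84 libraries and 33.0 and 47.8 FPKM in Fix T4. In both genes both Fix T4 libraries were above both CY84 libraries. The log2 difference was 2.63 for PAL1 (SE 0.32, limma adjusted p = 0.00193) and 3.26 for PAL4 (SE 0.38, limma adjusted p = 0.00137). 4-coumarate:CoA ligase then activates the acids: 4CL3 (LOC_Os02g08100) had 38.5 and 31.4 FPKM in the CY84 libraries and 94.4 and 161 FPKM in Fix T4 (log2 difference 1.80, SE 0.34, limma adjusted p = 0.0196). 4CL5 (LOC_Os08g34790) had 1.66 and 1.34 FPKM in the CY84 libraries and 5.91 and 10.9 FPKM in Fix T4 (log2 difference 1.86, SE 0.39, limma adjusted p = 0.0329). The other tested ligase genes did not pass, with log2 differences of 0.12 for 4CL1 (95% interval -0.60 to 0.84) and 0.09 for 4CL4 (95% interval -0.82 to 0.99).

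Further along the pathway, HCT1 (LOC_Os04g42250), an acyltransferase, had 68.6 and 55.0 FPKM in the CY84 libraries and 226 and 299.6 FPKM in Fix T4 (log2 difference 2.06, SE 0.30, limma adjusted p = 0.00449). COMT1 (LOC_Os08g06100), an O-methyltransferase, had 92.7 and 100.1 FPKM in the CY84 libraries and 374 and 544 FPKM in Fix T4 (log2 difference 2.22, SE 0.30, limma adjusted p = 0.00306). CAD2 (LOC_Os02g09490), the alcohol dehydrogenase that makes lignin building blocks, had 25.4 and 24.7 FPKM in the CY84 libraries and 147 and 249 FPKM in Fix T4 (log2 difference 2.88, SE 0.44, limma adjusted p = 0.00619). These levels were not limited to Fix T4. PAL4 had 131 and 62.2 FPKM in Fix T3, 26.2 and 27.5 FPKM in Fix T1 and 4.09 and 5.17 FPKM in Fix T2. HCT1 had 493 and 297 FPKM in Fix T3 and 176 and 229 FPKM in Fix T1. In both genes Fix T3 replicate 1 was the highest of the 12 libraries, and Fix T2 lay near CY84. PAL4 passed in all 19 alternative fits, PAL1 missed only without CY84 replicate 2 (limma adjusted p = 0.0513), and without CY84 replicate 2 or Fix T4 replicate 2 the values were 0.0533 and 0.0582 for COMT1 and 0.0845 and 0.0744 for HCT1. CAD2 missed without CY84 replicate 1, CY84 replicate 2 or Fix T4 replicate 2 (0.0588, 0.0844 and 0.101), 4CL3 without these libraries (0.111, 0.222 and 0.249) and with no filter (0.0658), and 4CL5 without either library of CY84, Fix T0 or Fix T4 (limma adjusted p 0.0578 to 0.345), with no filter (0.101) and with a pseudocount of 0.1 (0.0657).

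Rice leaves under attack make diterpenoid phytoalexins, antimicrobial compounds such as momilactones, from geranylgeranyl diphosphate by way of cyclases (CPS and KSL enzymes) and cytochromes P450. Of 7 tested genes 3 rose and 0 fell, beside 1.68% and 0.201% of all tested genes, with a median log2 difference of 1.49. In 7 of 7 both Fix T4 libraries stood above both CY84 libraries, beside 35.7% of all tested genes. CYP76M8, 1 of the 7, passed the filter on low values only through Fix T4. The list was also drawn up with earlier results of these libraries known, so these counts are no support for the list as a whole. The genes that rose belong to the momilactone cluster of chromosome 4. CPS4 (LOC_Os04g09900), the first cyclase, had 0.0383 and 0.108 FPKM in the CY84 libraries and 2.18 and 3.34 FPKM in Fix T4 (log2 difference 1.79, SE 0.40, limma adjusted p = 0.0443). MAS1 (LOC_Os04g10010), the dehydrogenase of the last step, had 0.383 and 0.383 FPKM in the CY84 libraries and 10.5 and 13.9 FPKM in Fix T4 (log2 difference 3.24, SE 0.63, limma adjusted p = 0.0217). CYP99A2 (LOC_Os04g10160), a P450, had 0.236 and 0 FPKM in the CY84 libraries and 4.14 and 5.76 FPKM in Fix T4 (log2 difference 2.41, SE 0.50, limma adjusted p = 0.0317). CYP99A3, another P450 of the cluster, had 1.87 and 3.18 FPKM in the CY84 libraries and 7.95 and 9.54 FPKM in Fix T4 and did not pass (limma adjusted p = 0.102).

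In Fix T3 the momilactone genes were split between the libraries: MAS1 had 18.4 and 2.82 FPKM, CPS4 4.65 and 1.05 FPKM and CYP99A2 8.79 and 1.79 FPKM. Fix T3 replicate 1 was the only library outside Fix T4 at or above the lower Fix T4 library in any of the 3. On chromosome 2, CYP71Z7 (LOC_Os02g36190), a P450 of phytoalexin synthesis, had 3.08 and 2.14 FPKM in the CY84 libraries and 14.5 and 18.1 FPKM in Fix T4 (log2 difference 2.27, SE 0.40, limma adjusted p = 0.0121). Its neighbour in name CYP71Z6 differed by 0.37 (95% interval -0.31 to 1.04), the cyclase gene CPS2 by 0.46 (95% interval -0.68 to 1.59) and KSL7 by 0.37 (95% interval -0.30 to 1.05) on the log2 scale. Without any 1 of the 4 compared libraries the calls were lost for MAS1 (limma adjusted p 0.0948 to 0.211), CYP71Z7 (0.0634 to 0.165), CYP99A2 (0.111 to 0.277) and CPS4 (0.115 to 0.346), CYP99A2 and CPS4 also without either Fix T0 library (0.0541, 0.0543, 0.0752 and 0.0745) and CPS4 without either Fix T2 library (0.0601 and 0.0604). With no filter the limma adjusted p was 0.0954 for MAS1, 0.106 for CYP99A2, 0.102 for CPS4 and 0.0518 for CYP71Z7, on rescaling it was 0.0660 for CYP99A2 and 0.111 for CPS4, and CPS4 also missed with Fix T1 and T2 left out (0.0513).

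**Figure D3:**
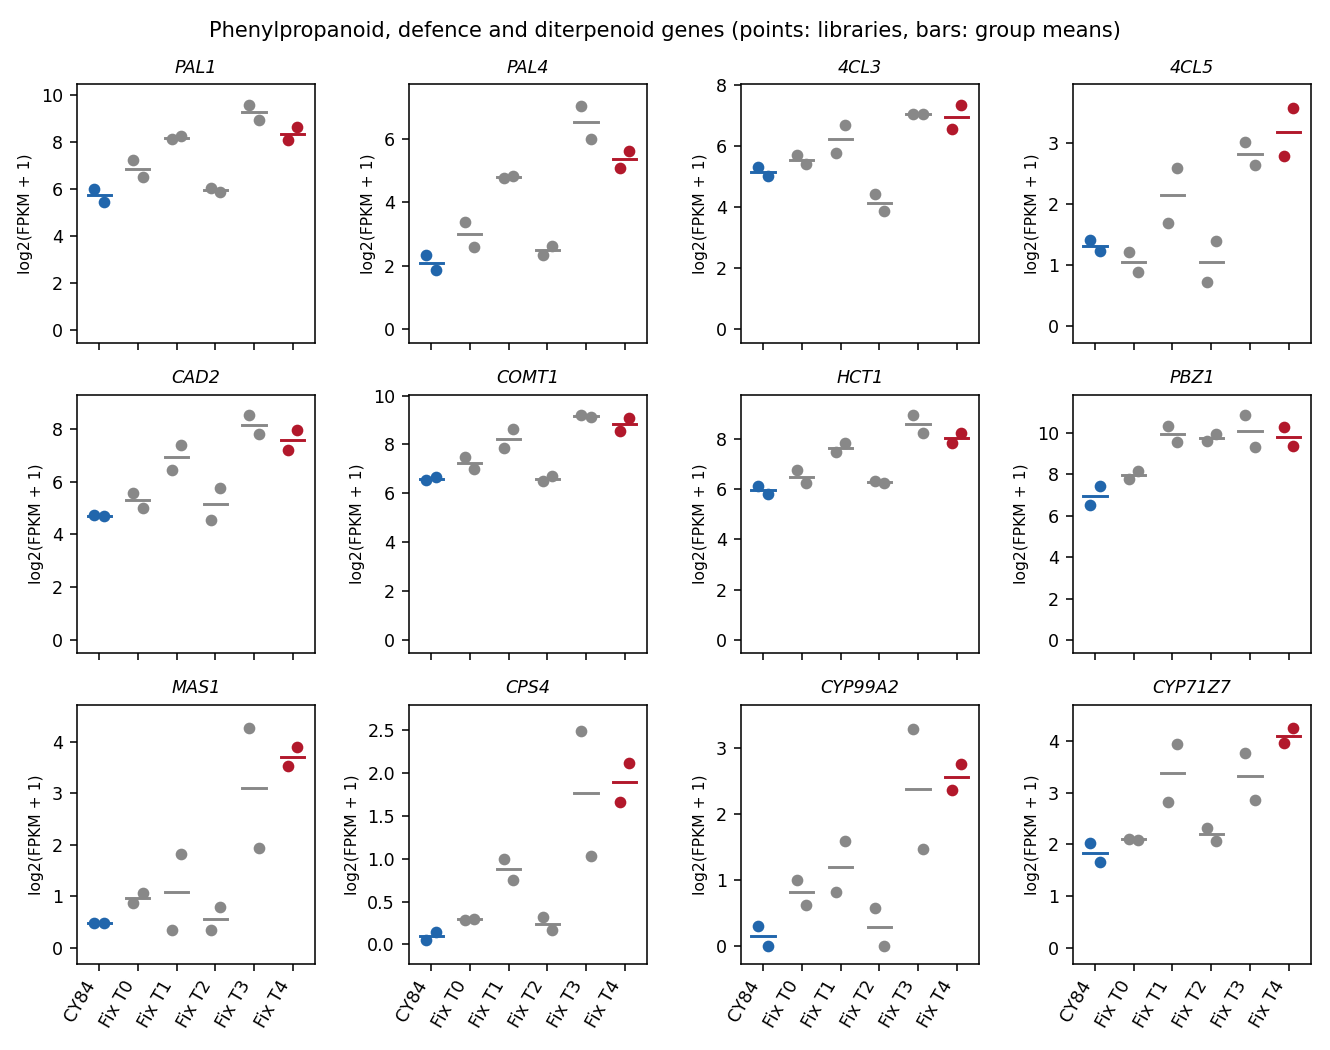
Log2(FPKM + 1) of 7 phenylpropanoid genes, PBZ1 and 4 diterpenoid genes in each of the 12 libraries (points; CY84 blue, Fix T4 red, Fix T0 to T3 grey), with group means as bars; each panel has its own axis. The red points lie above the blue ones in all 12 panels, and in all but CYP71Z7 at least 1 grey point of Fix T3 reaches the lower red point.

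In the nutrient lists 1 gene rose and 1 fell, beside 1.68% and 0.201% of all tested genes. PHT1-1 (LOC_Os03g05620), a phosphate transporter, had 48.1 and 48.7 FPKM in the CY84 libraries and 138 and 159.7 FPKM in Fix T4 (log2 difference 1.598, SE 0.23, limma adjusted p = 0.00449). Fix T3 was as high as Fix T4, at 148 and 174 FPKM, and Fix T0 at 49.5 and 53.5 FPKM lay near CY84. It was the 1 gene that rose among 8 tested genes of phosphate transport and signalling, 0 of which fell. PHT1-8 had 24.09 and 28.2 FPKM in the CY84 libraries and 86.3 and 83.0 FPKM in Fix T4, without overlap, and did not pass (log2 difference 1.66, limma adjusted p = 0.222). Its Fix T1 libraries, which count in the shared estimate of the spread, lay at 9.59 and 60.4 FPKM. PHT1-1 lost its call without CY84 replicate 1, CY84 replicate 2 or Fix T4 replicate 2 (limma adjusted p = 0.0573, 0.0716 and 0.0739).

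NIA1 (LOC_Os08g36480), a nitrate reductase gene, was the 1 listed gene that fell. It had 80.5 and 118 FPKM in the CY84 libraries and 29.8 and 33.0 FPKM in Fix T4 (log2 difference -1.604, SE 0.31, limma adjusted p = 0.0201). All 8 libraries of Fix T0 to Fix T3 lay below both CY84 libraries too, at 26.3 to 48.5 FPKM. Of the 8 tested genes of nitrogen uptake and assimilation 0 rose, and the median log2 difference was -0.30. The plastid glutamine synthetase gene GLN2 had 597 and 558 FPKM in the CY84 libraries and 444 and 447 FPKM in Fix T4, with a limma adjusted p of 0.674. AMT1-1, an ammonium transporter gene, had 54.5 and 63.0 FPKM in the CY84 libraries and 19.8 and 47.4 FPKM in Fix T4, with a limma adjusted p of 0.446. In both genes the Fix T4 values were lower without overlap. NIA1 lost its call without any 1 of the 4 compared libraries (limma adjusted p 0.0639 to 0.276) and with no filter (0.0603).

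HOX24 (LOC_Os02g43330), a homeodomain factor gene that drought and abscisic acid induce, fell from 3.21 and 5.12 FPKM in CY84 to 1.07 and 0.333 FPKM in Fix T4 (log2 difference -1.61, SE 0.37, limma adjusted p = 0.0499). It was below both CY84 libraries in all 8 libraries of Fix T0 to Fix T3 as well. Of 15 tested genes of abscisic acid and drought responses written in the first lists, 0 passed, 12 lay below 0, and the median log2 difference was -0.47. Since 1.68% of all tested genes rose and 0.201% fell, 0 calls among 15 genes is no result about the list. The share of all tested genes below 0 is not given here. NCED3, an enzyme of abscisic acid synthesis, had 13.4 and 14.5 FPKM in the CY84 libraries and 7.44 and 6.66 FPKM in Fix T4 (log2 difference -0.89, limma adjusted p = 0.158). PP2C09, a phosphatase of the abscisic acid pathway, had 234 and 201 FPKM in the CY84 libraries and 113 and 137 FPKM in Fix T4 (log2 difference -0.79, limma adjusted p = 0.128). The groups did not overlap in either gene, yet neither passed. HOX24 kept its call in 4 of 12 fits without 1 library (limma adjusted p 0.0391 to 0.441 over the 12) and lost it on rescaling (0.0806), with no filter (0.104) and with a pseudocount of 0.1 (0.374).

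In heat stress genes, 0 of 5 tested genes of the first list passed, with a median log2 difference of 0.10. Beside 1.68% of all tested genes that rose and 0.201% that fell, 0 calls among 5 genes is no result about the list. HSP24.1 had 0.776 and 0.796 FPKM in the CY84 libraries and 1.65 and 2.17 FPKM in Fix T4, while HSP17.4 had 1.04 and 3.56 FPKM in the CY84 libraries and 0.189 and 0.637 FPKM in Fix T4 (limma adjusted p = 0.412 and 0.413). These small heat shock protein genes thus stood on opposite sides of CY84. HSFB1 (LOC_Os09g28354), a heat stress factor gene of class B, rose from 1.93 and 4.12 FPKM in CY84 to 9.81 and 17.88 FPKM in Fix T4 (log2 difference 1.88, SE 0.39, limma adjusted p = 0.0287). HSFB1 stood at 13.9 and 16.1 FPKM in Fix T3, as high as in Fix T4. It lost its call without either library of CY84, Fix T0 or Fix T4 (limma adjusted p 0.0551 to 0.341), with no filter (0.0832) and on rescaling (0.0539).

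Only 9 photosynthesis genes had a usable name and were tested, so they do not stand for the whole pathway. None of them passed, beside 1.68% of all tested genes that rose and 0.201% that fell, and most had lower values in Fix T4. With so few genes, 0 calls is no result about photosynthesis, and the share of all tested genes below 0 is not given here. Of 5 light reaction genes and 4 genes of the Calvin cycle and photorespiration 0 passed, 8 of the 9 lay below 0, and the medians of the log2 difference were -0.30 and -0.32, or -0.44 and -0.47 on rescaling. CAB1R differed by -0.49 (limma adjusted p = 0.809), and LHCB3, a light-harvesting protein gene of photosystem II, had 3182 and 2991 FPKM in the CY84 libraries and 2481 and 1958 FPKM in Fix T4 (limma adjusted p = 0.717). RCA, which activates Rubisco, had 6769.8 and 6073 FPKM in the CY84 libraries and 3661 and 4273 FPKM in Fix T4 (log2 difference -0.70, 95% interval -1.55 to 0.16, limma adjusted p = 0.636). GLO5, a glycolate oxidase gene of photorespiration, had 954 and 823 FPKM in the CY84 libraries and 616 and 766 FPKM in Fix T4 (limma adjusted p = 0.827). The 4 leaf markers CAB1R, CAB2R, RBCS2 and RCA together summed to 38323 and 36503 FPKM in the CY84 libraries and 34650 and 26721 FPKM in Fix T4. In bulk leaf, fewer cells of a type and less RNA per cell cannot be told apart. 

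Chlorophyll synthesis had 0 of 7 tested genes passing, beside 1.68% of all tested genes that rose and 0.201% that fell. The median log2 difference of the list was -0.05. PORA, a protochlorophyllide reductase gene, had 223 and 258 FPKM in the CY84 libraries and 411 and 276 FPKM in Fix T4. CHLD, a subunit of magnesium chelatase, had 14.5 and 15.2 FPKM in the CY84 libraries and 19.8 and 19.6 FPKM in Fix T4. Both had higher values in Fix T4, against the sign of the list's median. In chlorophyll breakdown and senescence 0 of 5 tested genes passed, all 5 lay below 0, and the median was -0.33. At the shares of all tested genes, 0 calls in lists this small is no result about them. How many of all tested genes lay below 0 is not given here. NYC1, the chlorophyll b reductase of leaf yellowing, had 122 and 115 FPKM in the CY84 libraries and 83.5 and 106 FPKM in Fix T4. NAC2, a senescence factor gene, had 11.1 and 9.15 FPKM in the CY84 libraries and 8.09 and 6.85 FPKM in Fix T4. Neither overlapped with CY84, and the 95% interval of the log2 difference held 0 in both, at -0.93 to 0.27 and -1.13 to 0.34.

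Of 6 tested flowering time genes 0 passed, beside 1.68% of all tested genes that rose and 0.201% that fell, and the median log2 difference was -0.19. HD3A, whose product travels from leaf to shoot tip and starts flowering, had 70.9 and 82.3 FPKM in the CY84 libraries and 41.0 and 16.8 FPKM in Fix T4 (log2 difference -1.50, limma adjusted p = 0.162). MADS50, a factor gene that promotes flowering, had 4.95 and 4.21 FPKM in the CY84 libraries and 6.19 and 7.71 FPKM in Fix T4 (log2 difference 0.51, limma adjusted p = 0.623). The groups did not overlap in either gene, with HD3A lower and MADS50 higher in Fix T4. Of 8 tested clock genes 0 passed (median -0.15). At the shares of all tested genes, 0 calls among 6 or 8 genes is no result about either list. LHY, a clock gene that peaks in the morning, had 57.3 and 60.3 FPKM in the CY84 libraries and 31.4 and 53.3 FPKM in Fix T4. LUX, which peaks in the evening, had 9.69 and 6.73 FPKM in the CY84 libraries and 10.9 and 11.1 FPKM in Fix T4.

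**Figure D4:**
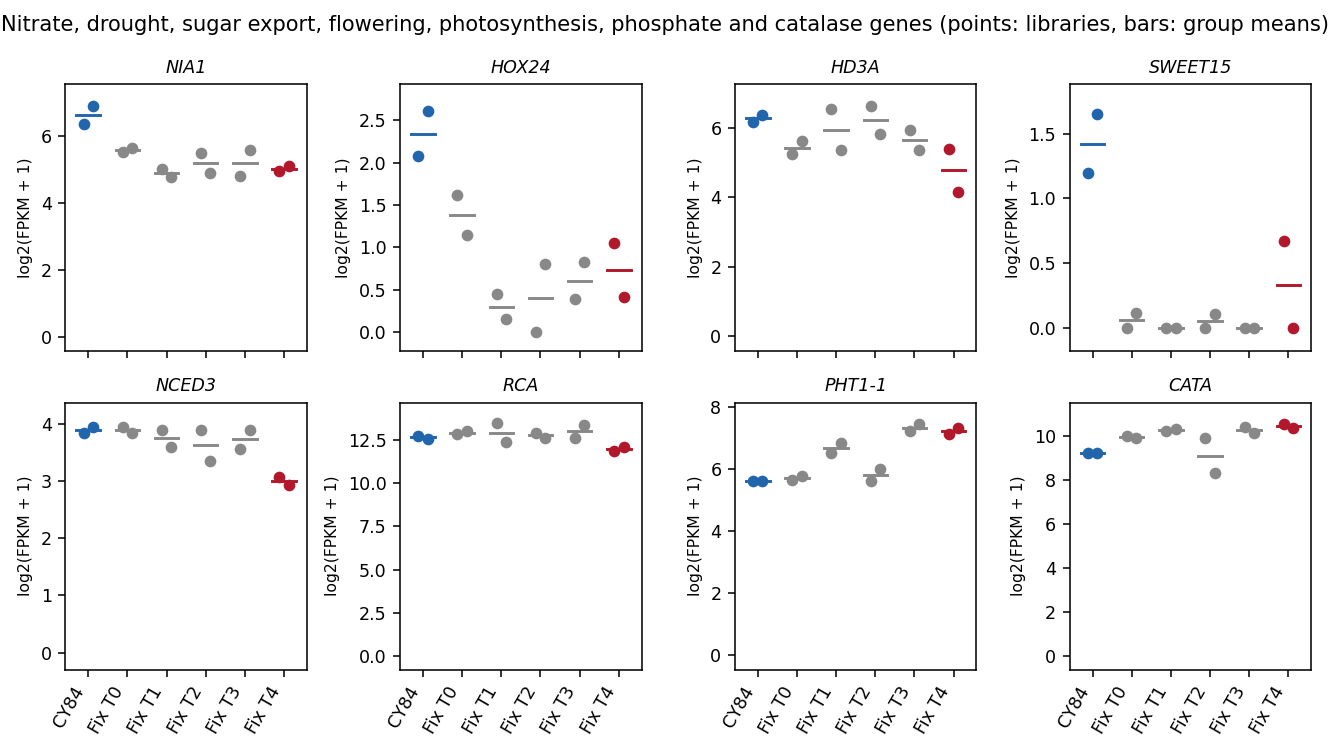
Log2(FPKM + 1) of 8 genes in each of the 12 libraries (points; CY84 blue, Fix T4 red, Fix T0 to T3 grey), with group means as bars; each panel has its own axis. The red points lie below the blue ones in NIA1, HOX24, HD3A, SWEET15, NCED3 and RCA and above them in PHT1-1 and CATA; of the 8, NIA1, HOX24 and PHT1-1 passed.

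The remaining lists held no gene that passed. At 1.68% of all tested genes that rose and 0.201% that fell, this is no result about these lists. Among 11 tested silicon and water channel genes the median log2 difference was -0.18. LSI1, the silicon influx channel, had 18.6 and 19.6 FPKM in the CY84 libraries and 33.0 and 32.9 FPKM in Fix T4 (log2 difference 0.75, limma adjusted p = 0.334). PIP1-3, a plasma membrane aquaporin, had 352 and 337 FPKM in the CY84 libraries and 587 and 651 FPKM in Fix T4 (log2 difference 0.84, limma adjusted p = 0.142). Both had higher values in Fix T4 without overlap, against the sign of their list. Among 10 antioxidant enzyme genes the median was 0.13. CATA, a catalase gene, had 589 and 600.3 FPKM in the CY84 libraries and 1513 and 1309 FPKM in Fix T4 (log2 difference 1.24, limma adjusted p = 0.198). APX2, a cytosolic ascorbate peroxidase gene, had 235 and 298 FPKM in the CY84 libraries and 325 and 409 FPKM in Fix T4 (log2 difference 0.46, limma adjusted p = 0.606). Among 10 cytokinin genes the median was 0.08. CKX2, an enzyme that degrades cytokinin, had 0.131 and 0.411 FPKM in the CY84 libraries and 7.77 and 3.27 FPKM in Fix T4 (log2 difference 2.28, limma adjusted p = 0.208). RR6, a type-A response regulator gene, had 7.68 and 7.85 FPKM in the CY84 libraries and 15.1 and 10.4 FPKM in Fix T4 (log2 difference 0.63, limma adjusted p = 0.546). The Fix T4 values of these 4 genes were above both CY84 libraries, and in CKX2 4 libraries of Fix T0 to Fix T3 reached the lower Fix T4 library.

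Sucrose transport and synthesis had 9 tested genes with a median log2 difference of 0.11. SWEET15, a sugar exporter gene, had 1.29 and 2.13 FPKM in the CY84 libraries and 0.588 and 0 FPKM in Fix T4 (log2 difference -1.09, limma adjusted p = 0.0953). SPS6, a sucrose-phosphate synthase gene, had 7.11 and 8.16 FPKM in the CY84 libraries and 8.29 and 10.9 FPKM in Fix T4 (log2 difference 0.28, limma adjusted p = 0.934). SWEET15 was below both CY84 libraries in all 8 libraries of Fix T0 to Fix T3 as well. DNA methylation and silencing had 8 tested genes with a median of 0.05. AGO18, an Argonaute gene of antiviral silencing, had 1.49 and 1.65 FPKM in the CY84 libraries and 4.05 and 3.48 FPKM in Fix T4 (log2 difference 0.89, limma adjusted p = 0.266). AGO1A, an Argonaute gene of the microRNA pathway, had 14.97 and 14.4 FPKM in the CY84 libraries and 18.9 and 19.7 FPKM in Fix T4 (log2 difference 0.37, limma adjusted p = 0.799). On rescaling the medians of the antioxidant, cytokinin, sucrose and silencing lists turned to -0.0095, -0.06, -0.03 and -0.08, so these 4 lists have no direction that holds under both scalings.

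Outside the lists, the 2 genes with the largest rise and the 2 with the largest fall were taken from those that passed without overlap and had a mean of at least 5 FPKM in CY84 or in Fix T4. They are given by identifier, without a name. LOC_Os03g02470 had 0 and 0.232 FPKM in the CY84 libraries and 70.5 and 77.0 FPKM in Fix T4 (log2 difference 6.07, SE 0.29, limma adjusted p = 1.37e-06), and all other Fix libraries held 20.5 to 154 FPKM. LOC_Os01g09220 had 0.936 and 0.747 FPKM in the CY84 libraries and 61.2 and 52.0 FPKM in Fix T4 (log2 difference 4.96, SE 0.78, limma adjusted p = 0.00720), while no library of Fix T0 to Fix T3 exceeded 13.5 FPKM. LOC_Os03g54130 had 13.3 and 30.6 FPKM in the CY84 libraries and 0 and 0.299 FPKM in Fix T4 (log2 difference -4.22, SE 0.45, limma adjusted p = 0.000720). LOC_Os05g49240 had 19.4 and 26.8 FPKM in the CY84 libraries and 0.661 and 0 FPKM in Fix T4 (log2 difference -4.21, SE 0.44, limma adjusted p = 0.000663). The last 2 were at most 1.37 and 1.81 FPKM in Fix T0 to Fix T3. In LOC_Os03g02470, LOC_Os03g54130 and LOC_Os05g49240 all 8 libraries of Fix T0 to Fix T3 differed from both CY84 libraries in the direction of Fix T4.

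Whether a gene's distance from CY84 was larger in Fix T4 than in other Fix generations was tested directly, since CY84 drops out of the difference. These tests use the same Fix T4 libraries as the comparison with CY84, and 0.98% of tested genes passed with higher values in Fix T4 against Fix T0 and 0.774% against the mean of Fix T1 to T3. Over all tested genes the median log2 difference was 0.16 and 0.36 in these 2 tests, which rescaling brought to -0.0095 and 0.01. DREB1A was higher in Fix T4 by 4.04 on the log2 scale than in Fix T0 (limma adjusted p = 0.000887) and by 3.48 than in the mean of Fix T1 to T3 (limma adjusted p = 0.000731). DREB1B was higher by 4.97 than in Fix T0 (limma adjusted p = 0.00165) and by 4.10 than in the mean of Fix T1 to T3 (limma adjusted p = 0.00222). The first of each pair of tests passed in all 19 alternative fits. Against the mean of Fix T1 to T3 both missed with a pseudocount of 0.1 (limma adjusted p = 0.0745 and 0.0878), and DREB1B also without either Fix T4 library (0.0512 and 0.0607).

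PAL4, PBZ1, NIA1 and HOX24 did not pass all of these tests. PAL4 was higher than in Fix T0 by 2.37 (limma adjusted p = 0.0124), but its difference of 0.75 from the mean of Fix T1 to T3 (95% interval 0.07 to 1.42) did not pass (limma adjusted p = 0.142). PBZ1 passed neither test, with 1.86 against Fix T0 (95% interval 0.78 to 2.94, limma adjusted p = 0.134) and -0.11 against the mean of Fix T1 to T3 (95% interval -0.99 to 0.77, limma adjusted p = 0.869). NIA1 differed by -0.57 from Fix T0 (95% interval -1.23 to 0.10, limma adjusted p = 0.772) and by -0.08 from the mean of Fix T1 to T3 (95% interval -0.63 to 0.47, limma adjusted p = 0.843). HOX24 differed by -0.65 from Fix T0 (95% interval -1.46 to 0.15, limma adjusted p = 0.805) and by 0.30 from the mean of Fix T1 to T3 (95% interval -0.36 to 0.96, limma adjusted p = 0.517). PAL4 lost its call against Fix T0 when Fix T0 replicate 2 was left out (limma adjusted p = 0.194) or either Fix T4 library (0.0598 and 0.177), and with no filter (0.0538).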

How the data were processed

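Processing was as follows. FPKM per gene, as deposited by the authors in 1 table per the file headers, was used for 12 flag leaf RNA libraries; 20 columns of that table that no label names and 12 bisulfite samples were not used here. Per the submitters' processing notes the tools include Trimmomatic 0.39, HISAT2 2.1.0, StringTie 1.3.4d, featureCounts 1.6.4 and DESeq2 1.30.1; the build they aligned to was not given in the sources used here. The depth of each library is unknown, so no interval for counting error is given.

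Genes with at least 1 FPKM in at least 2 of the 12 libraries were tested on log2(FPKM + 1) with limma 3.58.1 in R 4.3.3 (1 mean per group, moderated variance with a trend, 6 residual degrees of freedom, Benjamini-Hochberg adjustment over all 18871 genes, threshold 0.05), tested first on simulated data. Alternatives were a pseudocount of 0.1, no filter, median-of-ratios rescaling, a replicate block, library weights, the compared groups alone, leaving out Fix T1 and T2, and leaving out each library.

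The files give identifiers without symbols. Symbols were paired with identifiers by hand and kept where the gene annotation of ASM3414082v1 places the symbol on the same chromosome in matching gene order, for 246 of 328 pairs. The members and lists were chosen with earlier results of these data known. Named are the 15 genes with the largest rise and fall among listed genes that passed, and the 4 genes of smallest p in each list with a call or 2 in each other list; DREB1E, 4CL3, 4CL5 and other members that complete a list were named after their values were seen. 1 listed gene is not reported here and is left out of the counts of listed genes.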

Additional observations from a re-analysis of the deposited data

Results flagged for a closer look

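For 18 of the 28 named genes that differed between Fix T4 and CY84, that distance from CY84 was larger in Fix T4 than in Fix T0, by a test of the difference itself in which CY84 drops out. For 11 it was larger than in the mean of Fix T1 to T3. Both counts include DREB1E, DREB1G and DREB1H, which passed the filter on low values only through Fix T4. Of all tested genes 0.98% and 0.774% were higher in Fix T4 in these 2 tests, but the 28 genes were chosen because the same Fix T4 libraries differed from CY84, so their counts are not read against these shares. Both tests use the same Fix T4 libraries, so their results are not independent of each other or of the comparison with CY84.

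Among the DREB1 genes the log2 difference from Fix T0 was 4.04 for DREB1A, 4.97 for DREB1B, 2.87 for DREB1H, 1.95 for DREB1G and 1.83 for DREB1E. From the mean of Fix T1 to T3 it was 3.48 for DREB1A, 4.10 for DREB1B, 2.66 for DREB1H, 1.90 for DREB1G and 1.78 for DREB1E. The limma adjusted p was 0.000887 and 0.000731 for DREB1A and 0.00165 and 0.00222 for DREB1B. DREB1E, DREB1G and DREB1H passed the filter on low values only through Fix T4, so their differences are given as values and are no support for the family. DREB1A held both calls in all 12 fits without 1 library. DREB1E lost the call against Fix T0 without either Fix T0 library (limma adjusted p = 0.0909 and 0.125) or Fix T4 replicate 1 (0.084), and DREB1G without the same libraries (0.0573, 0.058 and 0.0549). DREB1H lost it without Fix T0 replicate 1 (limma adjusted p = 0.0588). With a pseudocount of 0.1 no DREB1 gene passed against the mean of Fix T1 to T3.

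CML31 differed by 4.24 from Fix T0 (limma adjusted p = 0.00661) and by 2.99 from the mean of Fix T1 to T3 (limma adjusted p = 0.0183). The latter call was lost with a pseudocount of 0.1 (limma adjusted p = 0.0778), with no filter (0.0739) and with the compared groups alone (0.0585). CML15 differed by 3.46 (limma adjusted p = 0.0461) and 3.29 (limma adjusted p = 0.0296), but kept these calls in 2 and 7 of the 12 fits without 1 library and in neither case on rescaling (0.0724 and 0.0825). WRKY24 differed by 3.20 (limma adjusted p = 0.00769) and 2.00 (limma adjusted p = 0.0368), the latter kept in 3 of the 12 fits without 1 library. WRKY71 differed by 2.20 (limma adjusted p = 0.00202), in all 19 alternative fits, and by 1.37 (limma adjusted p = 0.0139), which rescaling ended (0.117). The latter also missed with a pseudocount of 0.1 (limma adjusted p = 0.0745) and with the compared groups alone (0.0639). JAZ10 differed by 2.86 (limma adjusted p = 0.00791) and 2.35 (limma adjusted p = 0.0110). Its second call was lost with a pseudocount of 0.1 (limma adjusted p = 0.0778) and with the compared groups alone (0.0578). JAZ12 differed from the mean of Fix T1 to T3 by 1.35 (limma adjusted p = 0.0470), kept in 4 of the 12 fits without 1 library and lost on rescaling (0.152). MPK5 differed from Fix T0 by 1.81 (limma adjusted p = 0.0124).

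A further 7 genes differed from Fix T0 without passing against the mean of Fix T1 to T3. PAL4 differed by 2.37, CAD2 by 2.297, 4CL5 by 2.13, COMT1 by 1.56 and HCT1 by 1.54 among the phenylpropanoid genes (limma adjusted p 0.0124, 0.0295, 0.0248, 0.0295 and 0.0295). CYP71Z7 differed by 2.01 (limma adjusted p = 0.0338) and PHT1-1 by 1.51 (limma adjusted p = 0.00920). Rescaling ended the calls of CAD2 (limma adjusted p = 0.0725), COMT1 (0.0621) and HCT1 (0.0839). Without 1 library of Fix T0 or Fix T4 at least 1 call was lost for each gene named here other than DREB1A and, against Fix T0, DREB1B and WRKY71.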

How the results depend on the processing

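Counts of genes that passed moved by over 1.5 times under many settings. For Fix T4 against CY84 the count of 355 became 220 with no filter (180 higher, 40 lower), 1328 with library weights, 719 with Fix T1 and T2 left out, 897 with the 2 groups alone, and 34 to 502 without 1 library; it was 278 with a pseudocount of 0.1 and 276 on rescaling. For Fix T4 against Fix T0 the count of 199 became 72, 112, 650, 420 and 421 with a pseudocount of 0.1, no filter, weights, without Fix T1 and T2 and with the groups alone, and 30 to 314 without 1 library. For Fix T4 against the mean of Fix T1 to T3 the count of 150 (146 higher, 4 lower) became 43 on rescaling (36 higher, 7 lower), 87 with no filter, 1959 with weights, 23 with the groups alone and 11 to 4473 without 1 library, the highest without Fix T1 replicate 2. With a pseudocount of 0.1 limma called 0 genes there, where the unadjusted p was under 0.05 in 4819 higher genes and 297 lower ones, and the smallest adjusted p was 0.0561. The cause of these shifts was not tested.

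Same-numbered libraries did not as a rule deviate together: their deviations correlated over 0.1 in 2 of 15 pairs of groups, and at -0.0539 between CY84 and Fix T4. The largest correlations in size were negative, at -0.304 between Fix T0 and Fix T2 and -0.229 between Fix T0 and Fix T1. What these deviations share across groups was not tested. With the replicate number as a block the counts were 297, 153 and 90, and CML15, HOX24 and CPS4 missed against CY84 (limma adjusted p = 0.0523, 0.0775 and 0.0579), CML15 and CYP71Z7 against Fix T0 (0.0622 and 0.0571) and JAZ12 and WRKY24 against the mean of Fix T1 to T3 (0.0553 and 0.0583). Among the 28 named genes that passed, DREB1E, DREB1G and DREB1H had met the filter on low values only through Fix T4. CY84 and Fix T4 did not overlap in any gene that passed, so leaving out 1 library could not turn its sign. No filter, the replicate block, library weights and fits without other groups left the log2 difference itself unchanged. A kept sign is therefore no result of those fits. Of these 28 genes, DREB1A, DREB1B, DREB1H and PAL4 passed in all 19 alternatives, and none changed sign. They numbered 10 and 4 without CY84 replicates 1 and 2, and 12 and 7 without Fix T4 replicates 1 and 2, where the lone library is assumed to vary like the other groups. Among genes that did not pass, the sign turned for HSFA2C without Fix T4 replicate 2 (-0.12, and 0.74 without replicate 1) and, without Fix T4 replicate 1, for GLUA2 (0.068, and -0.36 without replicate 2) and IRT1 (-0.17, and 0.51 without replicate 2). FPKM values carry no read totals, so no counting error could be given.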
